A study of Mus musculus with 6 samples.

Results

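Genes of 4 families of guidance molecules were followed: the ephrins, their Eph receptors, the semaphorins and the plexins. The tissue was whole mouse pancreas at embryonic day 12.5 (E12.5), with and without the Hox6 genes. A gene was a member if a probe set of the array named it alone and its symbol was that of an Epha, Ephb, Efna or Efnb gene, a Sema gene with a number and a letter, or a plexin of the Plxna to Plxnd groups. Each gene was read from its brightest probe set, by the mean of the 6 arrays. This gave 50 members among 18193 genes measured: 8 ephrins, 13 Eph receptors, 20 semaphorins and 9 plexins. The study compared 3 wild-type control pancreas samples of strain Bl6 with 3 Hox6 null ones of the same strain, tissue and day, each hybridised to an array of its own. Both groups were handled alike, from flash-frozen dissected organs to amplification from 10 ng of total RNA. Samples are labelled as biological replicates, with no number of embryos, sex or litter for any of them, so that p-values measure no more than the spread among these samples. The null animals lack the genes in all cells, so that the comparison does not show in which cell type the loss acted, and in a whole organ fewer cells of a type and less RNA per cell cannot be told apart. Values are log2 levels relative to the set of arrays, in which a step of 1 is a doubling, and every difference below is Hox6 null minus control on this scale.

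Ephrins are ligands held at the cell surface, of the A type by a lipid anchor and of the B type by a membrane-spanning segment, and they bind Eph receptor tyrosine kinases on neighbouring cells, with signals passed into both cells. Semaphorins are secreted or membrane-bound ligands that bind plexins, the secreted ones mostly with a neuropilin as co-receptor, and plexins change the cytoskeleton through small GTPases. Both systems are known for steering axons, sorting cells at boundaries and shaping vessels, and EphB signalling takes part in the early branching of the pancreatic epithelium.

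The targeted genes and the tissue markers were checked on these arrays. Hox6 denotes the paralogues Hoxa6, Hoxb6 and Hoxc6, of which Hoxa6 was not analysed here. Hoxb6 levels were 8.78, 8.97 and 9.36 in control and 8.25, 8.71 and 8.91 in null arrays, with overlap, and Hoxc6 differed by 0.13, 0.47 and 0.73 in its 3 probe sets. Since the disrupted stretch of each gene is not given in the labels, and a probe set that lies elsewhere checks nothing, these values leave the genotypes unchecked. Pdx1, a homeodomain factor of pancreatic epithelium, read 8.24 to 8.62 in control and 8.78 to 9.97 in null arrays. Ptf1a read 7.34 to 7.85 and 7.50 to 8.58, and Nkx6-1 read 8.36 to 8.83 and 9.01 to 9.85. These epithelial genes were thus above the median level of all genes (6.81) in every sample. Over all probe sets, correlations were 0.994 to 0.995 among control and 0.980 to 0.987 among null arrays. The null arrays thus differed more from each other than the controls did, and null 3 stood closest to the controls in most of what follows.

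None of the 50 members passed the test across all genes (limma, adjusted p under 0.05), where 13 of 18193 genes did, or 0.0715%. The smallest adjusted p among the members was 0.112, that of the receptor gene Epha2, and 12 members had an unadjusted p under 0.05 (limma), against 17% of all genes. Control and null arrays did not overlap for 12 members, 8 lower and 4 higher in the null arrays. That is 24% of the members, against 23.8% of all genes (11.7% lower and 12.2% higher), a share near the background. The median difference of the members was 0.02 and that of all genes 0.03. The members with a difference over 1 in size were Plxnc1, Efnb2 and Sema3a, all 3 lower in every null array than in any control, and such a size was found in 0.945% of all genes.

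**Figure D1:**
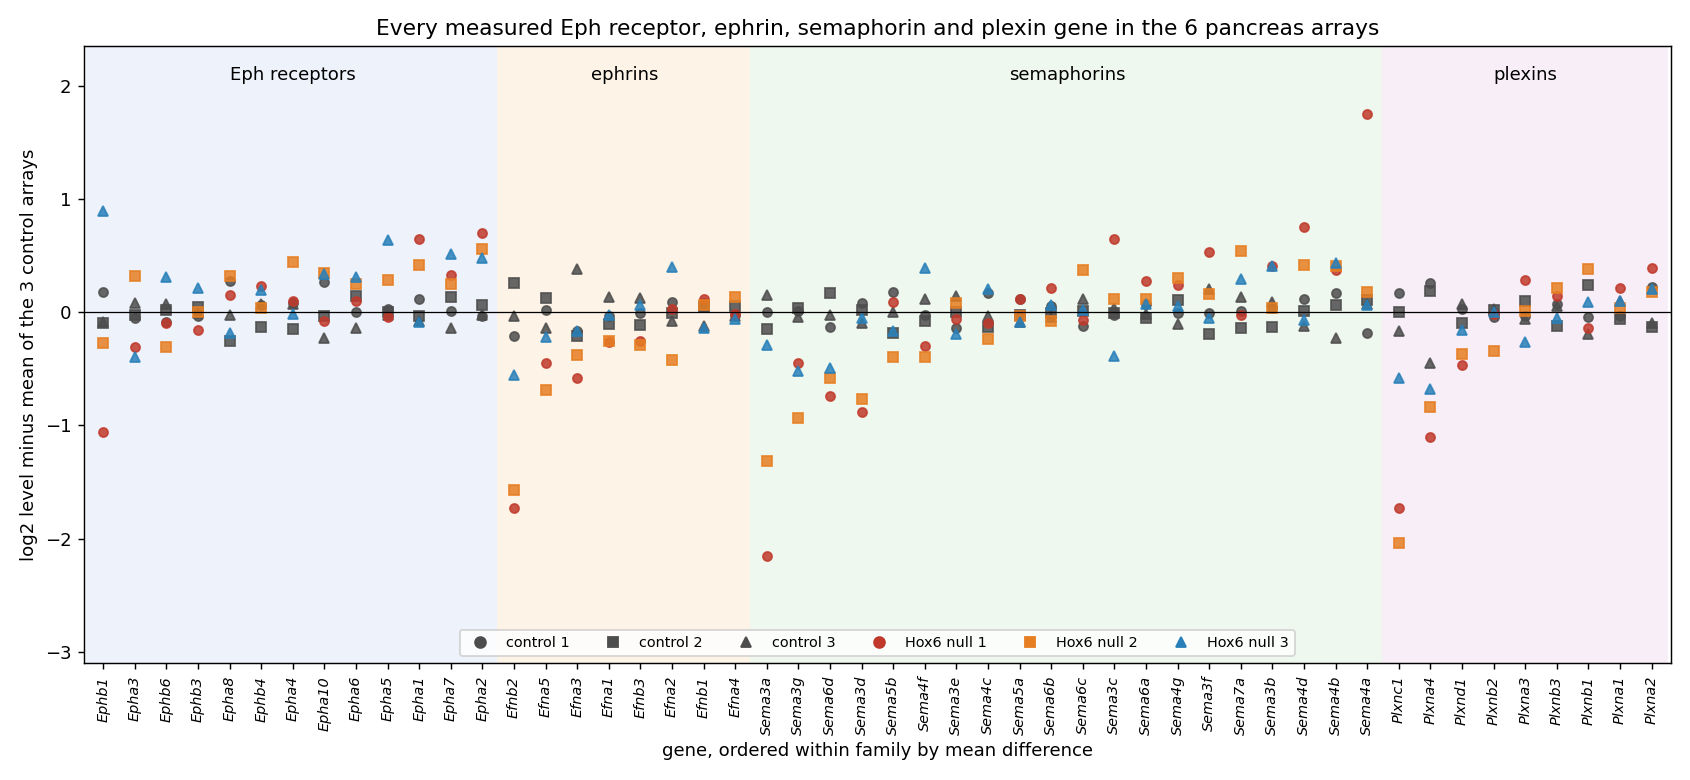
Level of each of the 50 members in each of the 6 arrays, as log2 level minus the mean of the 3 control arrays (vertical axis), with genes ordered by mean difference within each family (horizontal axis). Grey symbols are control arrays and coloured symbols Hox6 null arrays. Most genes lie within a narrow band around 0, while null 1 and null 2 lie far below it for Efnb2, Sema3a and Plxnc1 and null 3 less far.

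The sequences just upstream of the genes with the largest differences are shown, as these genes carry the sizes that stand out, with that of Epha2, the member with the smallest p, beside them. RefSeq promoter windows (build GRCm38.p6), which hold 250 bases before and 50 after a start site, were found for 44 of the 50 members, 58 windows in all. Printed are the 250 bases before the start, 5′ to 3′ on the gene's strand, with capitals marking the GC box letters GGGCGG on either strand.
Efnb2 (chr8:8661243-8661492, minus strand): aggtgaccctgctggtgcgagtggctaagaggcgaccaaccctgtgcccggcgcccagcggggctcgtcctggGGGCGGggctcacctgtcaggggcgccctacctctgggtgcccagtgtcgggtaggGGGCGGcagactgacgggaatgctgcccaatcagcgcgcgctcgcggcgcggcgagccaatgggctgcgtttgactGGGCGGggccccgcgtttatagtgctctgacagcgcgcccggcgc
Plxnc1 (chr10:94944846-94945095, minus strand): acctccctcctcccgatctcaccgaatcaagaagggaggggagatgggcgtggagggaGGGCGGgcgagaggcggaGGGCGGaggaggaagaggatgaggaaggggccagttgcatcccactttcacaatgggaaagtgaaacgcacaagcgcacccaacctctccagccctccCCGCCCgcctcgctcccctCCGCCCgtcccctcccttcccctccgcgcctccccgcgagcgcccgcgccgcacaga
Sema3a (chr5:13396534-13396783, plus strand): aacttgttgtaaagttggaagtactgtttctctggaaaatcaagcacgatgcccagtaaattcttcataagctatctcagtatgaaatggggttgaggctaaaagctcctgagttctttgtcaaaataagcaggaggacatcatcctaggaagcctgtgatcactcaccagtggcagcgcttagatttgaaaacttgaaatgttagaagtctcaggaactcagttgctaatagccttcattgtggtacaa
Epha2 (chr4:141300971-141301220, plus strand): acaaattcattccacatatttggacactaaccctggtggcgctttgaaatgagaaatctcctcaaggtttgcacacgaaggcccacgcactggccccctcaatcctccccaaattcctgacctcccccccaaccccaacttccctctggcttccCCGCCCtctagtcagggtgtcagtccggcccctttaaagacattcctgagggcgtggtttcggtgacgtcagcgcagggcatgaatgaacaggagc

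Of the windows of the 3 lower genes, those of Efnb2 and Plxnc1 were similar in GC box matches and GC content, and that of Sema3a was unlike both. That of Efnb2 has 3 GC box matches and a GC content of 72.3% over its 300 bases, that of Plxnc1 has 4 matches and 69.0%, and that of Sema3a has 0 matches and 41.3%. The window of Epha2 has 1 match and 54.7%. GC box matches were in 75.9% of the member windows and in 35.7% of all 32851 windows. Letters bound by Hox proteins were also searched on both strands. The homeodomain core TAATTA was in 2 of 58 member windows (3.45%, those of Epha5 and of 1 of 2 starts of Efna1) and in 5.29% of all windows. The composite Hox and Pbx letters TGATTNAT were in 0 of 58 member windows and in 3.22% of all windows. No searched motif overlapped another in the printed sequences. A match is a description of the letters, and these windows do not cover distant enhancers.

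Among the ephrins the B-type ligand Efnb2 had the largest difference. Efnb2, which marks arterial endothelium and is the main partner of the venous receptor Ephb4, read 8.97, 9.44 and 9.15 in control arrays and 7.46, 7.61 and 8.63 in null arrays. The groups did not overlap, and null 3 lay much nearer the controls than null 1 and null 2 did. The difference was -1.28 ± 0.31 (SE, n = 3 per group), a 2.44-fold lower level that did not pass the test (limma, adjusted p = 0.166). Its other 3 probe sets were lower as well, by -1.17, -0.69 and -0.65, and in the last 2 of these null 3 lay 0.02 and 0.04 above the control mean. Efna5, an A-type ligand known from the mapping of nerve fibres, read 8.90, 9.01 and 8.74 in control and 8.43, 8.20 and 8.67 in null arrays, again without overlap. Its difference was -0.45 ± 0.14 (SE; limma, adjusted p = 0.224), and its second probe set gave -0.30. Efna3 stood at -0.38 ± 0.19 (SE; limma, adjusted p = 0.351) with overlapping arrays, null 3 (6.83) being within the range of the controls (6.79 to 7.38).

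The remaining ephrins had smaller differences, with overlap. Efna1, a ligand of Epha2, read 7.38 to 7.62 in control and 7.22 to 7.46 in null arrays, and Efnb3 read 7.92 to 8.17 and 7.75 to 8.11. Efna4 (0.02), Efnb1 (0.01) and Efna2 (0.0005) had differences close to 0, with standard errors of 0.10, 0.11 and 0.20. Of the 8 ephrins 5 had a lower mean in the null arrays, with a family median of -0.17, and 0 passed the test.

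Of the 13 Eph receptors measured, 0 passed the test. In 10 of them the null arrays had the higher mean, against 10180 of all 18193 genes. The family median was 0.17, against 0.03 over all genes. With all probe sets of a gene averaged, 9 receptors had the higher mean and the family median was 0.14. The level of 8 of the 13 was below the median of all genes. Epha2, an EphA receptor common in epithelia, read 5.11, 5.20 and 5.12 in control and 5.84, 5.70 and 5.61 in null arrays. All 3 null arrays were above all controls, and they lay close together. The difference was 0.58 ± 0.10 (SE; limma, adjusted p = 0.112), a 1.49-fold higher level. The single probe set of Epha2 was below the median level of all genes (6.81), where log2 differences are understated. Epha7 read 7.003, 7.12 and 6.85 in control and 7.32, 7.24 and 7.50 in null arrays, without overlap, a difference of 0.36 ± 0.12 (SE; limma, adjusted p = 0.226). The 3 further probe sets of Epha7 gave -0.05, 0.08 and 0.17, so that the difference was found in 1 of 4 probe sets at this size. Epha6, with levels of 2.25 to 2.70 in all arrays, had a difference of 0.22 ± 0.11 (SE; limma, adjusted p = 0.372), and a value so low carries little weight.

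The receptors of the B type overlapped between the groups. Ephb4, the receptor for Efnb2 on veins, read 10.35, 10.15 and 10.36 in control and 10.52, 10.32 and 10.48 in null arrays, with overlap, a difference of 0.15. Ephb3, one of the EphB receptors of the pancreatic epithelium, read 7.40 to 7.48 and 7.28 to 7.65, a difference of 0.02 ± 0.12 (SE). Ephb6, whose kinase domain is inactive, read 5.50 to 5.67 and 5.29 to 5.91. Ephb1 had the widest spread in the family: its control arrays read 6.44 to 6.71 and its null arrays 5.48, 6.26 and 7.42. Null 1 and null 2 were below and null 3 above every control, and the mean difference was -0.15. Ephb2 was not analysed here.

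Other A-type receptors overlapped between the groups. Epha1 read 6.36 to 6.55 in control arrays, 7.08 and 6.86 in null 1 and null 2, and 6.35 in null 3. Epha3 (8.24 to 8.37 in control, 7.90 to 8.62 in null arrays) and Epha4 (9.52 to 9.76 and 9.66 to 10.11) differed by -0.13 and 0.17. The 4 further probe sets of Epha4 gave -0.08, -0.24, 0.12 and -0.16, so that its direction depended on the probe set. Epha5 read 3.70 in null 3, above all other arrays (3.02 to 3.35). Epha8 and Epha10 lay between 4.10 and 4.74 in all arrays.

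**Figure D2:**
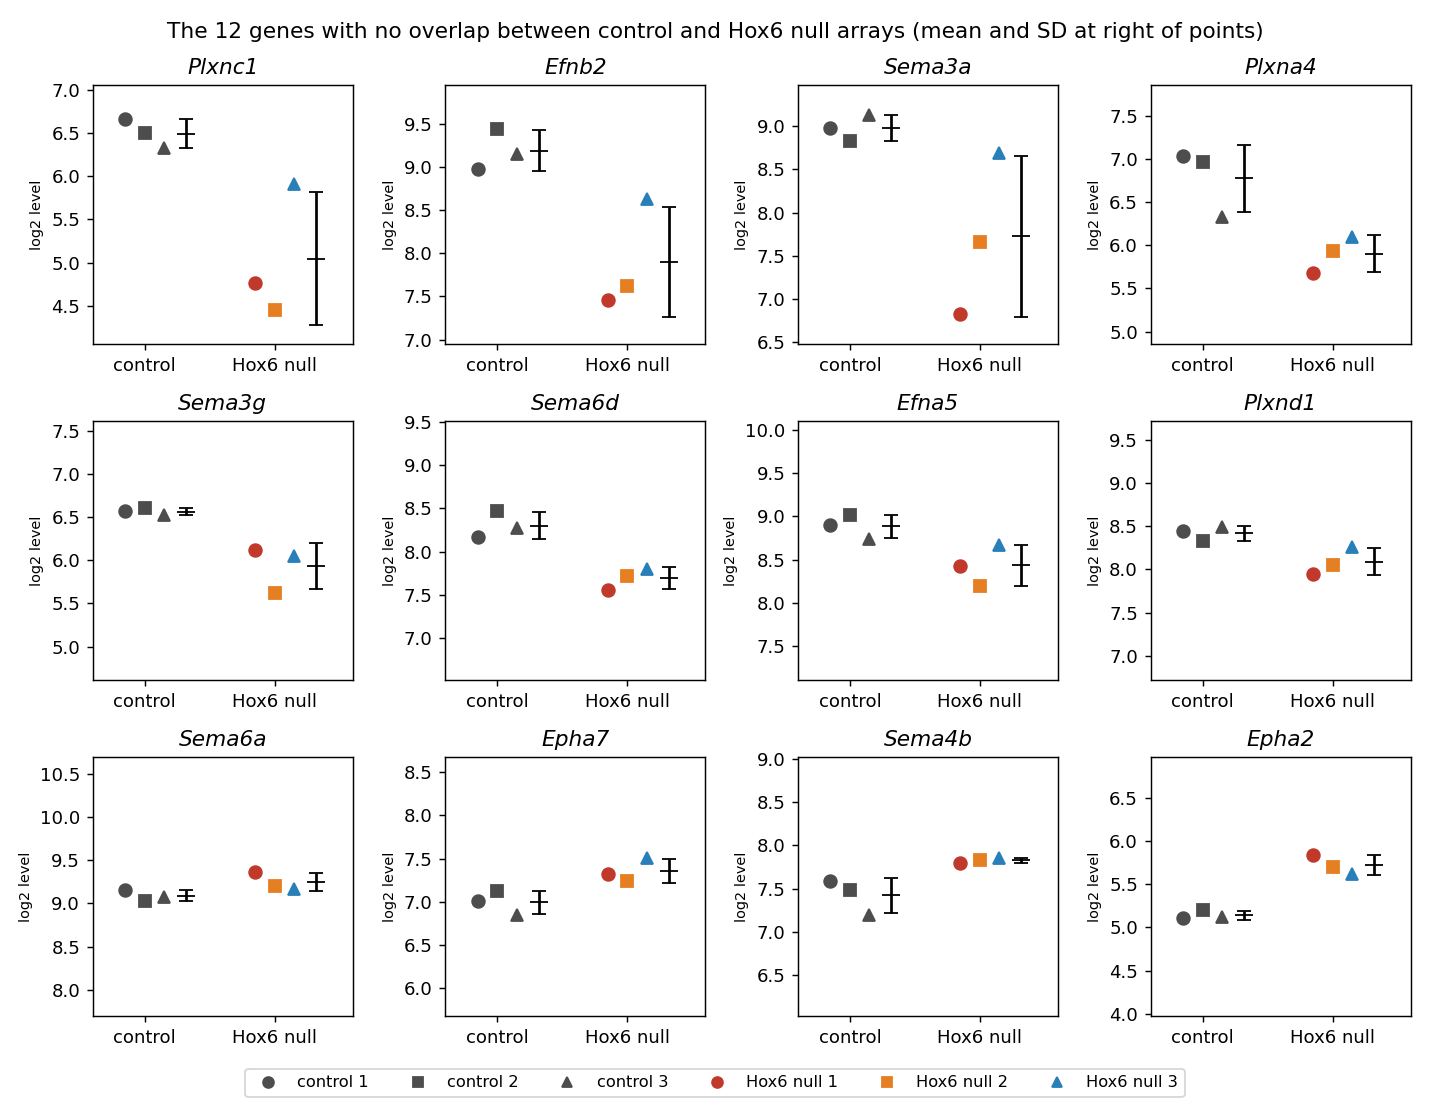
Log2 levels (vertical axes, each spanning 3 units) in control and Hox6 null arrays of the 12 members whose groups did not overlap, with the mean and SD (n = 3) beside the points. In Plxnc1, Efnb2 and Sema3a null 3 lies between null 1 or null 2 and the controls, whereas in Sema6d, Epha2 and Sema4b the 3 null arrays lie close together.

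None of the 7 secreted class 3 semaphorins passed the test, and 3 of them, Sema3b, Sema3c and Sema3f, had a higher mean in the null arrays. Sema3a, a repellent of axons and endothelial cells that signals through neuropilin Nrp1 and A-type plexins, read 8.98, 8.83 and 9.13 in control and 6.83, 7.66 and 8.69 in null arrays. The null arrays were widely spread, with null 3 just below the lowest control. The difference was -1.26 ± 0.42 (SE; limma, adjusted p = 0.232), a 2.39-fold lower level, and Sema3a was singled out for full values after they were seen. The 2 further probe sets of Sema3a gave -1.38 and -1.40, and in each of the 3 probe sets all null arrays were below all controls. Sema3g, known from arterial endothelium, read 6.57, 6.60 and 6.52 in control and 6.11, 5.62 and 6.04 in null arrays. All null arrays were lower, with a difference of -0.63 ± 0.14 (SE; limma, adjusted p = 0.159), and the gene was below the median level of all genes. Sema3d read 5.08 to 5.26 in control arrays, 4.29 and 4.41 in null 1 and null 2, and 5.12 in null 3. Its second probe set differed by -1.07, with null 3 (4.51) below the controls there (4.83 to 5.47).

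The other class 3 members overlapped between the groups. Sema3c, an attractant in heart and nerve development, read 7.30 to 7.36 in control arrays and 7.97, 7.44 and 6.94 in null arrays, on both sides of the controls. Sema3f, a repellent that acts through Nrp2, read 7.34 to 7.73 and 7.48 to 8.06. Sema3b differed by 0.28 with overlapping arrays. Sema3e, the ligand of Plxnd1 in vessel patterning, read 3.35 to 3.68 in all arrays, too low for a difference to carry weight.

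Membrane-bound semaphorins differed in both directions. Sema6d, a transmembrane ligand of Plxna1, read 8.17, 8.47 and 8.27 in control and 7.56, 7.72 and 7.80 in null arrays. All null arrays were lower by similar amounts, with a difference of -0.61 ± 0.12 (SE; limma, adjusted p = 0.141), a 1.52-fold lower level. The 3 further probe sets of Sema6d gave -0.61, -0.20 and -0.23. Sema4b read 7.59, 7.48 and 7.20 in control and 7.80, 7.83 and 7.86 in null arrays. The null arrays were higher and nearly equal, with a difference of 0.40 ± 0.12 (SE; limma, adjusted p = 0.212), whereas the second probe set of Sema4b gave 0.02. Sema6a, a ligand of Plxna2 and Plxna4, had null arrays above all controls by a small margin (9.16 to 9.36 against 9.03 to 9.16), a difference of 0.16. The 2 further probe sets of Sema6a gave 0.27 and -0.10.

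Sema4a, Sema4d and Sema7a had a higher mean in the null arrays, with overlap. Sema4a read 7.27 in null 1 and 5.34 to 5.70 in all other arrays, and its second probe set gave 0.50 for the mean difference. Sema4d, a ligand of Plxnb1, read 7.02 to 7.25 in control arrays, 7.89 and 7.56 in null 1 and null 2, and 7.07 in null 3. The 2 further probe sets of Sema4d gave 0.63 and 0.32, with all null arrays above all controls, the second at levels of only 2.62 to 3.35. Sema7a, a lipid-anchored ligand of Plxnc1, read 5.81 to 6.07 in control and 5.92 to 6.49 in null arrays. Sema5a (10.04 to 10.24 in both groups), Sema4c, Sema5b, Sema4g, Sema4f, Sema6b and Sema6c differed by 0.20 or less in size, with overlap. The 2 further probe sets of Sema6c gave 0.08 with overlap and 0.50 without. Of the 20 semaphorins 11 had a higher and 9 a lower mean, the family median was 0.09, and 0 passed the test.

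Of the 9 plexins 3 were lower in every null array than in any control, where 11.7% of all genes were, and none of the 3 passed the test. Plxnc1, the receptor of Sema7a, read 6.66, 6.50 and 6.32 in control and 4.77, 4.46 and 5.91 in null arrays. Null 3 was again nearest the controls. The difference was -1.45 ± 0.35 (SE; limma, adjusted p = 0.166), a 2.73-fold lower level from a gene below the median level of all genes. Of its other 5 probe sets, 4 were lower in the mean, by -0.999 to -1.12, and 1, with levels of 2.45 to 2.95, gave 0.03. Not all of the 4 were free of overlap. In 1 of them null 3 (6.45) lay above every control (6.11 to 6.36), and in another null 3 (5.88) lay within the controls (5.75 to 6.32). Plxna4, a receptor that serves class 3 and class 6 semaphorins on neurons, read 7.04, 6.96 and 6.33 in control and 5.68, 5.93 and 6.10 in null arrays. Control 3 was the lowest control and lay close to null 3. The difference was -0.87 ± 0.21 (SE; limma, adjusted p = 0.166), but the second probe set of Plxna4 gave 0.01, so that the difference was seen in 1 of 2. Plxnd1, the plexin of endothelial cells, read 8.44, 8.32 and 8.49 in control and 7.95, 8.05 and 8.26 in null arrays. The difference was -0.33 ± 0.11 (SE; limma, adjusted p = 0.242), with null 3 closest to the controls.

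The remaining plexins overlapped between the groups. Plxna1 read 9.26 to 9.42 in control and 9.36 to 9.53 in null arrays, and Plxna2 read 8.48 to 8.83 and 8.78 to 8.995. Plxnb2, a receptor for class 4 semaphorins in epithelia, read 9.96 to 10.03 in control arrays and 9.66 to 10.004 in null arrays. Plxna3, Plxnb1 and Plxnb3 differed by 0.01, 0.11 and 0.10. The median over the 9 plexins was 0.01, and 0 passed the test.

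Ligands and receptors that bind each other can be set side by side. For Efnb2 and Ephb4 the differences were -1.28 and 0.15, for Efna1 and Epha2 they were -0.18 and 0.58, and for Sema7a and Plxnc1 they were 0.27 and -1.45. For Sema3a the difference was -1.26, and for the A-type plexins it was 0.11 (Plxna1), 0.25 (Plxna2), 0.01 (Plxna3) and -0.87 (Plxna4, whose second probe set gave 0.01). For Sema6d and Plxna1 the values were -0.61 and 0.11, for Sema6a and Plxna2 0.16 and 0.25, for Sema4d and Plxnb1 0.37 and 0.11, and for Sema3e and Plxnd1 -0.06 and -0.33. None of these genes passed the test, and most of the pairs were chosen around a gene already known to have non-overlapping arrays, so that the pairs are a description.

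**Figure D3:**
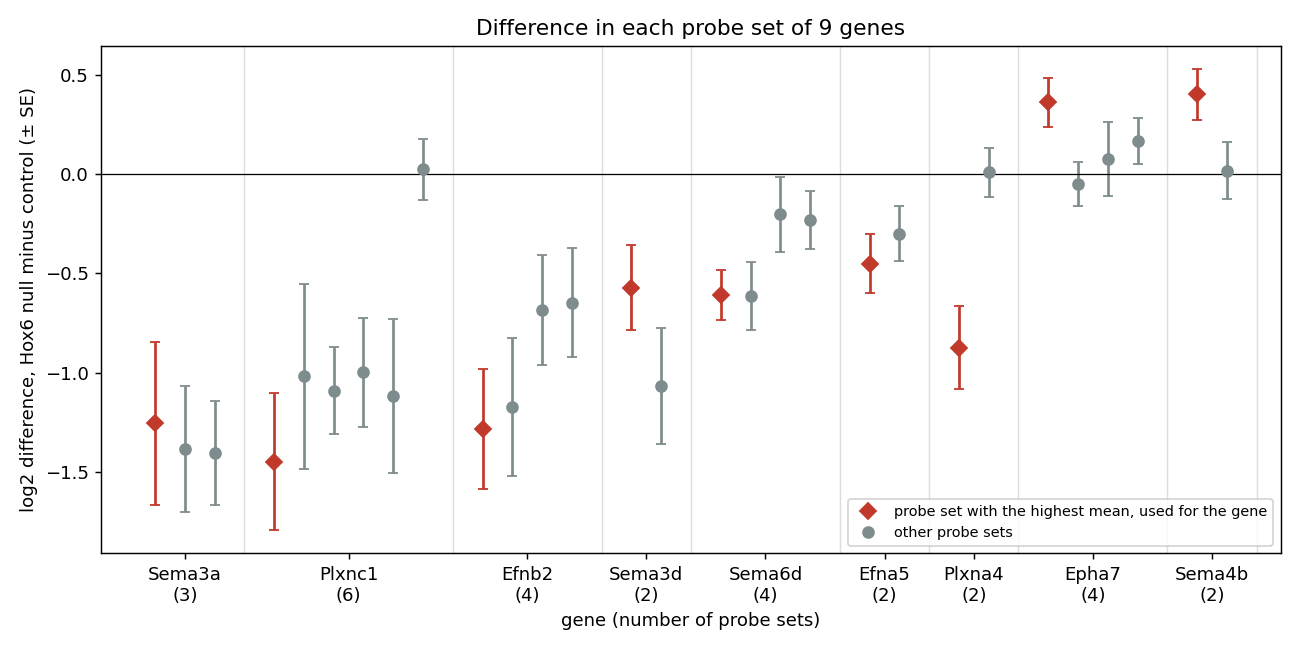
Log2 difference, Hox6 null minus control, with its standard error (vertical axis) in every probe set of 9 members (horizontal axis, number of probe sets in brackets), from the fit over all 45037 probe sets. All probe sets of Sema3a, Efnb2, Sema3d, Sema6d and Efna5 lie below 0, whereas the second probe set of Plxna4 and of Sema4b lies at 0.

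Probe sets of a gene share the arrays and the RNA and are no further samples, but they read different stretches of the transcript. Of the 50 members 34 had several probe sets, and in 24 of these all differences had the same sign. Among the 12 members without overlap, 9 had several and in 5 of these the signs were the same: Efnb2, Efna5, Sema3a, Sema6d and Sema4b. In the test over all 45037 probe sets, of which 1 passed (0.00222%), no member's probe set passed (limma, adjusted p), and the 3 of Sema3a had adjusted p of 0.263, 0.205 and 0.167 (limma).

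The position of null 3 bears on the counts. In 9 of the 12 members without overlap, and in 7 of the 8 that were lower, null 3 was the null array nearest the control mean. The same count was not made over all genes. On the first principal component of all probe sets, the main axis of variation, null 3 (-14.9) also lay nearest the controls (-30.0 to -22.9). Null 1 and null 2 lay at 61.7 and 36.0, so that this position is not particular to the members. Without null 3, 10 of the 50 members passed (limma), 8 lower and 2 higher, or 20%, where 1536 of 18193 genes did (8.44%). The lower ones were Plxnc1 (-1.88 ± 0.15, SE; adjusted p = 0.00772), Efnb2 (-1.65 ± 0.16; 0.00845), Sema3d (-0.83 ± 0.11; 0.0124), Sema3a (-1.74 ± 0.24; 0.0139), Sema6d (-0.66 ± 0.13; 0.0306), Sema3g (0.0456), Efna5 (0.0467) and Plxna4 (0.0488). The higher ones were Epha2 (0.63 ± 0.10; 0.0212) and Epha1 (0.53 ± 0.12; 0.0463). Leaving out any other single array gave 0 members. As null 3 lay nearest the controls in most members without overlap, leaving it out enlarges their differences by itself. The adjusted p-values (limma) without null 3 are thus no further support for these members. With array weights and all 6 arrays, Epha2 and Plxnc1 passed (2 members, against 0.852% of all genes). The labels give no reason to set null 3 aside, and the result with all 6 arrays remains the one reported. Null 3 did stand apart in some genes of the marker lists described below. Sox2 read 5.40 in null 3 and 2.54 to 3.12 in the other arrays, and Barx1 read 10.70 and 9.31 to 10.02. Tubb3, of the neural list, read 8.17 in null 3 and 5.81 to 6.62 in the other arrays. Cdx1 (3.23) and Cdx2 (4.26), of the same list as Sox2, were not raised in null 3, which decides nothing about the tissue. Whether the dissected tissue differed was not tested.

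The co-receptors and intracellular partners, 43 genes as a group, held 0 that passed and 10 with an unadjusted p under 0.05 (limma); 12 did not overlap (27.9%, against 23.8% of all genes), 9 of them lower. Dpysl5, a collapsin response mediator protein of growing axons, came closest, with 5.26, 5.37 and 5.48 in control and 6.20, 6.49 and 6.53 in null arrays. All 3 null arrays were higher by similar amounts. The difference was 1.04 ± 0.13 (SE; limma, adjusted p = 0.0619), and the second probe set gave 0.43 with null 3 (5.53) below control 1 (5.58). Nrp2, the neuropilin co-receptor of Sema3f and Sema3g, read 8.52, 8.60 and 8.48 in control and 8.06, 7.97 and 8.35 in null arrays. The difference was -0.41 ± 0.12 (SE; limma, adjusted p = 0.210), and its other 3 probe sets were lower too (-0.67 to -0.04). Nrp1, the co-receptor of Sema3a, read 9.37 to 9.77 and 9.03 to 9.54, with overlap. Vav3, an exchange factor downstream of Eph receptors, stood at -0.51 ± 0.15 (SE; limma, adjusted p = 0.206), with all 3 probe sets lower.

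Marker genes of several cell types differed between the groups as well. The mean log2 level of 12 endothelial genes, 1 of them (Kdr) also among the partner genes, was 8.43 to 8.55 in control arrays and 7.77, 7.90 and 8.13 in null 1, null 2 and null 3, and all 12 had a lower mean. The 12 mesenchymal genes read 9.83 to 9.94 in control and 9.25 to 9.53 in null arrays (11 lower), the 8 mesothelial genes 6.99 to 7.20 and 5.77 to 6.46 (7 lower), and the 12 macrophage genes 8.45 to 8.57 and 7.49 to 7.99 (12 lower). The 14 epithelial genes read 8.56 to 8.66 in control arrays and 9.61, 9.47 and 8.65 in the null arrays (13 higher). The 10 endocrine genes read 7.28 to 7.80 and 7.80 to 8.35 (10 higher), and the 9 neural genes 7.15 to 7.34 and 7.51 to 7.52 (7 higher, 2 lower). The narrow neural range hides unlike genes. Tubb3 lay 2.16 above the control mean in null 3, against 0.49 and 0.61 in null 1 and null 2. Erbb3 lay 1.09 and 1.01 above it in null 1 and null 2, and at -0.05 in null 3. Stmn2 (-0.61) and Hand2 (-0.13) had a lower mean. The 7 erythroid genes read 8.55 to 8.58 and 7.57 to 8.11, and the 6 smooth muscle genes 6.44 to 6.79 and 6.10 to 6.33. The 8 liver and gut genes read 5.64 to 6.98 in control and 5.97 to 6.21 in null arrays, but single arrays stood out. Control 2 was highest in Alb (10.60, against 6.44 to 8.02 in the other arrays) and Afp (11.01, against 8.82 to 10.16). It was also highest in Apoa1 (9.39, against 7.06 to 7.77) and Apoa2 (9.02, against 6.75 to 7.30). Null 3 was highest in Sox2, as given above. Every list held genes above the median level of all genes, but 5 of the 8 mesothelial genes were below it. So were 3 of the 6 smooth muscle, 4 of the 9 neural, 4 of the 10 endocrine and 4 of the 8 liver and gut genes. The part of these shifts in the members' differences was not tested. As a sign of RNA quality, the 3′ minus 5′ difference of the Gapdh control probe sets was 1.003 to 1.03 in control and 0.85 to 1.01 in null arrays, with the lowest value in null 1. That of the Actb control probe sets was -0.14 to -0.06 in control and -0.24 to -0.13 in null arrays, with the lowest value in null 3.

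**Figure D4:**
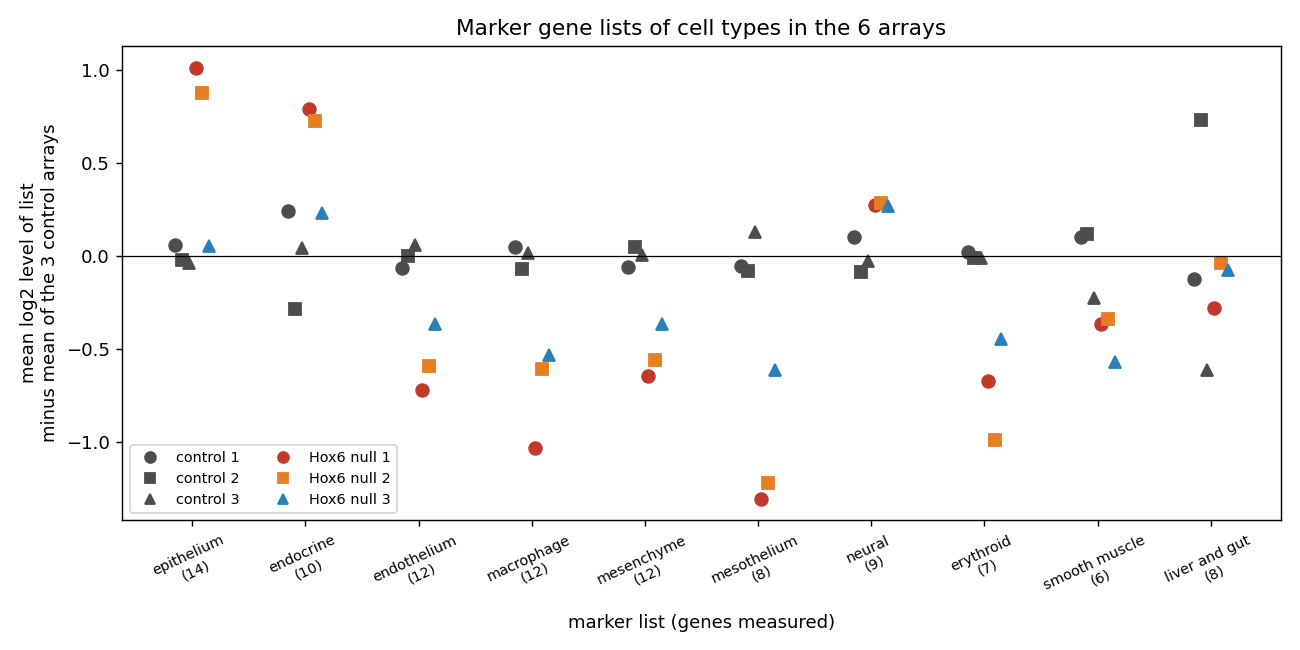
Mean log2 level of 10 marker lists in each array, minus the mean of the 3 control arrays (vertical axis), by list (horizontal axis, number of genes measured in brackets). Endothelial, macrophage, mesenchymal, mesothelial, erythroid and smooth muscle lists lie below the controls in all 3 null arrays, whereas the epithelial list lies above the controls in null 1 and null 2 and level with them in null 3.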

How the data were processed

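The deposited table holds log2 expression values of 45101 probe sets on 6 Affymetrix arrays (3 control, 3 Hox6 null); per the submitters' processing notes, the authors used RMA, affy and limma, without versions or roles given. Values are relative to the set and understate differences of dim probe sets, and precision is limited by having 3 arrays per group. Of all probe sets 34945 carried 1 gene symbol in the platform annotation, 932 several and 9160 none listed; 64 were array controls. Entrez identifiers of 34741 were found in the GRCm38.p6 gene table, and 0 symbols needed an update.

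A linear model with genotype as its term was fitted with limma 3.58.1 (lmFit, eBayes) in R 4.3.3 over 18193 genes, two-sided, with Benjamini-Hochberg adjustment over all genes and a threshold of 0.05. It was checked on simulated data. An exact permutation test of 3 against 3 arrays cannot go below 0.1, so none was used. Full statistics are given for members past the threshold, for those with non-overlapping arrays and an unadjusted p under 0.01, and for the 3 with the smallest p per family, partner genes counting as a family; Sema3a was added. Members, gene lists and this rule were chosen with earlier results of these data known. Alternatives covered blocking, normalization, variance prior, array weights, probe set choice, dim genes, the threshold and each array left out. Of the 45101 deposited values per array, 53 to 166 were exactly equal (no tolerance) between any pair of arrays.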

Additional observations from a re-analysis of the deposited data

How the results depend on the processing

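With all 6 arrays, 0 members passed under the replicate block, repeated quantile normalization, median centring, the intensity trend with a robust prior, adjustment over all probe sets, the averaging of all of a gene's probe sets, genes at or above the median level (29 members tested) or a threshold of 0.1 (limma, adjusted p). Array weights gave 2 members, Epha2 (1 Eph receptor, higher) and Plxnc1 (1 plexin, lower), and 1 partner gene, Dpysl5, which also passed with the intensity trend (1 partner gene) and at the threshold of 0.1 (1). Leaving out 1 array gave 0 to 10 members: 0 to 2 Eph receptors, 0 to 2 ephrins, 0 to 4 semaphorins, 0 to 2 plexins, and 0 to 5 partner genes, each maximum without null 3. All 16 genes with full statistics kept their sign in every alternative that tested them, although groups that do not overlap cannot change sign when an array is dropped.

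Over all genes the count of 13 became 0 with the replicate block, 1 after repeated quantile normalization, 8 with median centring, 74 with the intensity trend, 155 with array weights (37 higher, 118 lower), 1 of 45037 probe sets, 88 at the threshold of 0.1, and 0 to 1536 with 1 array left out. Family medians over the arrays left out were 0.10 to 0.22 for Eph receptors, -0.27 to -0.11 for ephrins, -0.01 to 0.11 (lowest -0.0062) for semaphorins and -0.13 to 0.12 for plexins; that of plexins became -0.0484 with the mean over probe sets and 0.058 for genes at or above the median level. The cause of these shifts was not tested. Whether replicate numbers pair the samples cannot be settled from 3 arrays per group. Deviations from the group means correlated by 0.16, -0.04 and 0.10 between same-numbered arrays, and by -0.17 to 0.06 between the others. The same-numbered control correlated best for null 1 and null 3 but not for null 2. The block changed no member's call.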
